A study of Mus musculus with 6 samples.

Results

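The C1q/TNF-related proteins are a family of secreted proteins that resemble adiponectin, and this account covers the 9 genes of the family that had a row among the 18749 gene rows measured in mouse aorta: C1qtnf1, C1qtnf2, C1qtnf3, C1qtnf4, C1qtnf5, C1qtnf6, C1qtnf7, C1qtnf9 and C1qtnf12. The members were found by gene symbol. C1qtnf7 was chosen by its CPM (counts scaled to library size) in the study's groups, being higher in one of them, so its group difference is described and not tested. The other 8 were listed as its relatives. Messenger RNA was sequenced from 6 whole aortas. All 6 recipient mice were Apoe-/-, a strain that lacks apolipoprotein E, and all had received a bone marrow transplant and an infusion of angiotensin II (Ang II) for 28 days. In 3 recipients the marrow was Apoe-/- (here the control recipients, libraries 1 to 3), and in 3 it was Apoe-/-Sept2C111A, marrow whose septin-2 carries the change that the name gives (here the Sept2C111A recipients, libraries 1 to 3). The comparison asks how the aorta differs when cells of marrow origin carry the altered septin-2. The recipients' own wall cells did not carry it, and the labels give neither the share of blood cells that came from the donor nor the age or sex of the mice. Nothing in the labels describes a batch, and the design text gives the 3 samples of a group as separate mice.

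Proteins of this family are built from a signal peptide, a collagen-like stretch in which glycine recurs at a fixed short interval, and a globular C1q domain at the end. Chains join into trimers through the C1q domain, as adiponectin does, and the trimers can be linked into larger complexes. Several members are known as hormones of fat tissue that act on glucose and lipid metabolism, and some have been studied in the vessel wall. C1qtnf4 departs from the plan, since it carries a pair of C1q domains and no collagen part.

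The collagen-like part can be read directly from the coding sequence, because every codon of the form GGN stands for glycine. The longest run of GGNNNNNNN repeats in frame was searched on the coding strand of 1 coding transcript per gene (GENCODE vM21, build mm10). It held 37 repeats in C1qtnf9, 34 in both C1qtnf7 and C1qtnf2, 23 in both C1qtnf3 and C1qtnf5, 14 in both C1qtnf1 and C1qtnf6, 8 in C1qtnf12 and 2 in C1qtnf4. A run of at least 8 repeats was present in 8 of the 9 members and in 113 of the 17728 genes searched (0.64%). The 4 members whose levels separated the groups (below) are printed here, 5′ to 3′, each as the longest piece of its run within 1 exon up to 20 repeats, with each repeat's GGN codon in capitals. The pieces lie at chr5:43615628-43615798 for C1qtnf7, chr11:43490732-43490902 for C1qtnf2, chr14:60779278-60779457 for C1qtnf9 and chr4:155964771-155964842 for C1qtnf12, all on the plus strand.
C1qtnf7: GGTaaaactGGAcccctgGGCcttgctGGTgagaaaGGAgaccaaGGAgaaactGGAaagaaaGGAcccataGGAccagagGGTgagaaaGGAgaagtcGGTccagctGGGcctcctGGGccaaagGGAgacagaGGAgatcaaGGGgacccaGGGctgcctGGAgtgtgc
C1qtnf2: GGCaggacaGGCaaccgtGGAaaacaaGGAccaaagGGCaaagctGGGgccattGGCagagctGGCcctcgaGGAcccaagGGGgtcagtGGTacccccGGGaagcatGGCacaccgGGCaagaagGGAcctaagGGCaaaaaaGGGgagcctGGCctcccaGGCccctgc
C1qtnf9: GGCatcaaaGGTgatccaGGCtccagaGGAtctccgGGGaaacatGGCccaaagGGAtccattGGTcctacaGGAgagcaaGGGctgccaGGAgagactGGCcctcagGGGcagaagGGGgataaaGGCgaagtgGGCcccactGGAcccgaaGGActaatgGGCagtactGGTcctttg
C1qtnf12: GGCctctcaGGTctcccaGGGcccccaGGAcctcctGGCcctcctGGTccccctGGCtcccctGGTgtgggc
The printed pieces of C1qtnf7 and C1qtnf2 hold 19 repeats each, and that of C1qtnf12 is its whole run. Over the aligned coding bases, the most alike pairs of members were C1qtnf1 with C1qtnf6 (66.4% identical over 744 bases) and C1qtnf2 with C1qtnf7 (61.6% over 864 bases), and the least alike were C1qtnf3 with C1qtnf5 (50.7%).

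The libraries held 17082719 to 20494928 estimated counts each and detected 16690 to 17049 genes. Control libraries 1 and 3 lay far from the other 4 libraries in a principal component plot, whose first 2 components held 46.6% and 28.1% of the variance. Adventitial fibroblast, smooth muscle, endothelial, macrophage and adipocyte markers were present in every library, and of these lists no marker stayed under 1 CPM in all 6. The summed level of 11 neutrophil markers was 2909 CPM in control library 1, 89.1 and 329 CPM in control libraries 2 and 3, and 16.5 to 28.4 CPM in Sept2C111A recipients. Of these markers, Mpo, Camp, Ngp and Elane stayed under 1 CPM in all 6 libraries, so the sum rests on the others. The summed level of 10 smooth muscle markers was 6141 CPM in control library 3 and 16700 to 24700 CPM in the other 5 libraries. Because whole tissue was sequenced, fewer cells of a type and less RNA per cell cannot be told apart in any value below.

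The family fell into 3 patterns. C1qtnf7, C1qtnf2, C1qtnf9 and C1qtnf12 were higher in every Sept2C111A library than in any control library. C1qtnf1, C1qtnf3, C1qtnf5 and C1qtnf6 overlapped between the groups and were highest in control library 3. C1qtnf4 was at about 1 CPM or less in each library. In all, control library 3 was the highest for 5 of the 9 members, as it was for 24.8% of the genes tested. Setting C1qtnf7 aside, 3 of the 8 members lay wholly higher in Sept2C111A recipients, where 11.2% of the 14466 genes tested did, and 0 lay wholly lower, where 11.9% did. No member passed edgeR's quasi-likelihood test after Benjamini-Hochberg adjustment over all genes (0 of 8 in either direction, against 0% of all genes). At an unadjusted p under 0.05 the count was 3 of 8 higher and 0 lower, against 6.17% and 8.83% of all genes. DESeq2 called 0 of the 8 at an adjusted p under 0.05, against 0.985% of genes called higher and 2.89% called lower. The log2 fold change was positive for 4 of the 8, against 50.1% of all genes, and its median was -0.07 over the 8 members and 0.00 over all genes tested.

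**Figure D1:**
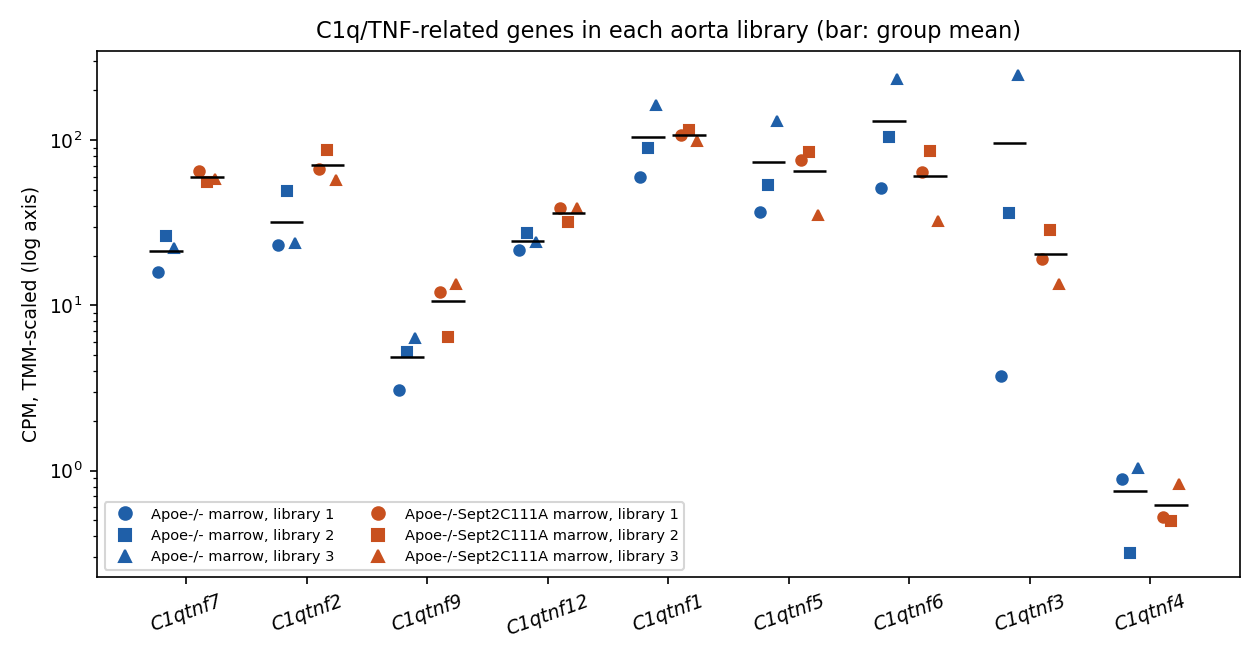
CPM of the 9 members in each library on a log axis, with control recipients in blue, Sept2C111A recipients in orange, marker shape giving the library number and a bar at the group mean. The colours do not overlap for C1qtnf7, C1qtnf2, C1qtnf9 and C1qtnf12, and control library 3 (blue triangle) is the highest point for C1qtnf1, C1qtnf5, C1qtnf6, C1qtnf3 and C1qtnf4.

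C1qtnf7 (ENSMUSG00000061535.11, chromosome 5, 43515538 to 43618803, plus strand) encodes CTRP7, a less studied member that has been tied to glucose metabolism. It stood at 15.9, 26.2 and 22.1 CPM in control libraries 1, 2 and 3 and at 65.3, 55.6 and 57.8 CPM in Sept2C111A libraries 1, 2 and 3. The lowest Sept2C111A library was thus above the highest control library. The means were 21.4 ± 5.21 CPM and 59.6 ± 5.07 CPM (SD, n = 3 each), a 2.79-fold difference that is given as a description, since this gene was picked for it. The spread within each group was small, with the highest library 1.65 times the lowest among controls and 1.17 times among Sept2C111A recipients. The ratio of means was 2.47 to 3.14 when any 1 library was left out, and 2.28 against control library 2 alone, without control libraries 1 and 3. Its estimated counts were fractional in all 6 libraries, so part of its reads was shared with other transcripts. The annotation places 3 genes inside its locus, Gm43022 and Gm43023 on the same strand and Gm15866 on the other, and none of them had a row.

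Of 16 adventitial fibroblast markers, 13 had a positive log2 fold change and 3 a negative one (Mfap5, Col15a1 and Dpp4), where 50.1% of all genes were positive. The groups were apart in 9, all higher in Sept2C111A recipients, against 11.2% of all genes wholly higher. While 0 passed edgeR's test after adjustment, 7 were higher at an unadjusted p under 0.05, against 6.17% of all genes. DESeq2 called 5, all higher, against 0.985% of all genes. Their summed level was 7220 to 9180 CPM in control recipients and 11900 to 16100 CPM in Sept2C111A recipients. C1qtnf7 was also given per 1000 CPM of these markers in the same library. It stood at 2.2 to 2.85 CPM in control recipients and 3.6 to 5.08 CPM in Sept2C111A recipients. That the groups were apart on that scale is a description, since C1qtnf7 was picked for its rise. C1qtnf2, C1qtnf9 and C1qtnf12 overlapped on the same scale. Per 1000 CPM of the 12 adipocyte markers, whose sum was 1820 to 4270 CPM in controls and 3590 to 8290 CPM in Sept2C111A recipients, C1qtnf7 overlapped between the groups, at 3.72 to 12.2 and 7.88 to 15.5 CPM. It also overlapped per 1000 CPM of the smooth muscle markers, at 0.894 to 3.61 and 2.25 to 3.6 CPM. On both scales control library 3 was the only control not below every Sept2C111A library. Its adipocyte sum (1815 CPM) and smooth muscle sum (6141 CPM) were the lowest of the 6 libraries. These ratios were chosen after the values were seen, and the part that any of these cell types has in the difference was not tested.

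C1qtnf2 (ENSMUSG00000046491.10, chromosome 11, 43474276 to 43491525, plus strand) encodes CTRP2, a close relative of CTRP7 that has been linked to lipid handling. It stood at 23.2, 49.4 and 23.7 CPM in control libraries 1, 2 and 3 and at 67.3, 87.1 and 57.1 CPM in Sept2C111A libraries. The groups did not overlap, and control library 2 was the control closest to the other group. The means were 32.1 ± 15.0 and 70.5 ± 15.2 CPM (SD, n = 3 each), a 2.2-fold difference. On the log2 scale the difference was 1.13 (SE 0.34, edgeR adjusted p = 0.316, DESeq2 adjusted p = 0.0661). Single controls bore on the estimate. Without control library 2 the log2 fold change was 1.59 (DESeq2 adjusted p = 7.12e-07), and against control library 2 alone it was 0.51. Per 1000 CPM of the fibroblast markers the groups overlapped, at 2.9 to 5.38 and 3.56 to 7.33 CPM.

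C1qtnf9 (ENSMUSG00000071347.3, chromosome 14, 60768134 to 60780869, plus strand) encodes CTRP9, the member closest to adiponectin, which is known to relax vessels and to act on the heart. It stood at 3.07, 5.21 and 6.38 CPM in control libraries and at 11.98, 6.46 and 13.5 CPM in Sept2C111A libraries, from 55 to 242 counts per library. The groups touched closely, since Sept2C111A library 2 lay just above control library 3. The log2 fold change was 1.12 (SE 0.39, edgeR adjusted p = 0.316, DESeq2 adjusted p = 0.12), and without Sept2C111A library 2 it was 1.38 with edgeR (adjusted p = 0.364) and 1.37 with DESeq2 (adjusted p = 0.035). Per 1000 CPM of the fibroblast markers the groups overlapped, at 0.425 to 0.781 and 0.544 to 0.932 CPM. An antisense gene, Mipepos, overlaps the locus in the annotation and had no row.

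C1qtnf12 (ENSMUSG00000023571.4, chromosome 4, 155962318 to 155966629, plus strand) encodes CTRP12 or adipolin, an adipokine that raises insulin sensitivity. Among controls it had the narrowest spread of the family, the highest library being 1.28 times the lowest. It stood at 21.6, 27.6 and 24.2 CPM in control libraries and 38.6, 31.8 and 38.7 CPM in Sept2C111A libraries. Every Sept2C111A library was above every control. The means were 24.4 ± 3.01 and 36.4 ± 3.95 CPM (SD, n = 3 each), a 1.49-fold difference. On the log2 scale the difference was 0.57 (SE 0.15, edgeR adjusted p = 0.316). With DESeq2 the adjusted p lay on either side of the threshold, at 0.0507 over all rows with a read and 0.0454 over the genes that edgeR tested. DESeq2 also called it without control library 2 (adjusted p = 0.0125) and without Sept2C111A library 2 (adjusted p = 0.0446). Against control library 2 alone the log2 fold change of C1qtnf12 was smaller, at 0.40. Per 1000 CPM of the fibroblast markers C1qtnf12 stood at 2.96 to 3.0 CPM in controls and 2.41 to 3.0 CPM in Sept2C111A recipients. On that scale the groups overlapped. The scale leans on a few markers, since Gsn (4663 CPM) and Dcn (4489 CPM) were the largest parts of the 16070 CPM in Sept2C111A library 3.

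**Figure D2:**
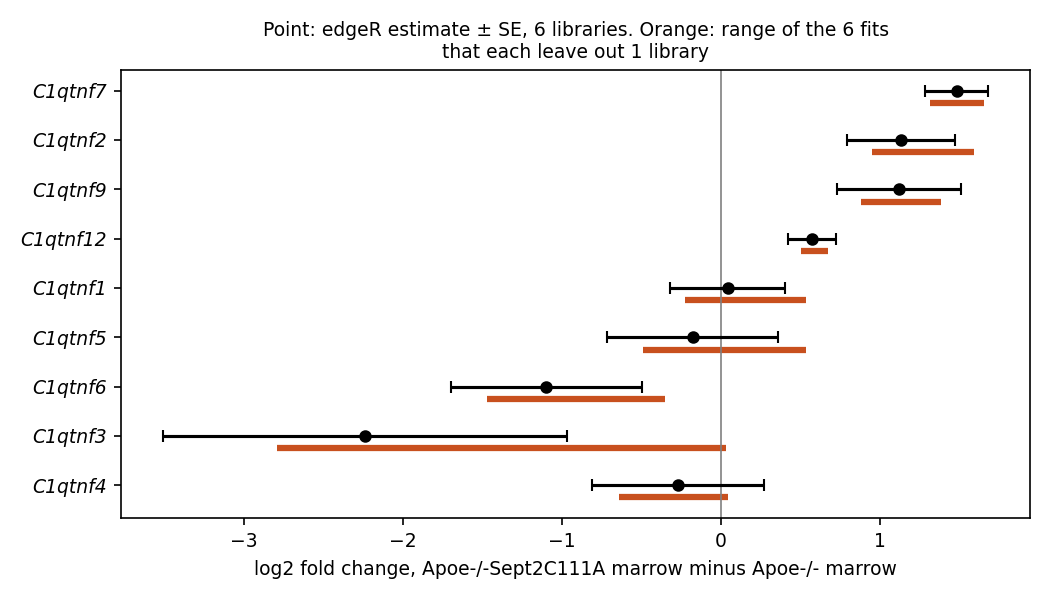
Log2 fold change of each member, Sept2C111A recipients minus control recipients, from edgeR with its SE (black), and the range over the 6 fits that each left out 1 library (orange bar). The range stays above 0 for C1qtnf7, C1qtnf2, C1qtnf9 and C1qtnf12, stays below 0 for C1qtnf6, and crosses 0 for C1qtnf1, C1qtnf5, C1qtnf3 and C1qtnf4. C1qtnf7 was picked for its rise in these libraries, so its point, SE and range are a description and not a test.

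Among the other members, C1qtnf3 varied most. It encodes CTRP3, first found in cartilage and also released by fat tissue (ENSMUSG00000058914.12, chromosome 15, 10952332 to 10980150, plus strand). It stood at 3.74, 36.3 and 249 CPM in control libraries 1, 2 and 3 and at 19.1, 28.6 and 13.5 CPM in Sept2C111A libraries. The controls thus held both the lowest and the highest value, 66.6-fold apart, while the Sept2C111A libraries lay 2.11-fold apart. The difference on the log2 scale, -2.24 (SE 1.27, edgeR adjusted p = 0.411), rested on control library 3, without which it was 0.03. Without control library 1 it was -2.79 with edgeR, and -2.81 with DESeq2, which then called it (adjusted p = 0.0194).

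Control library 3 held 6.87 times as much C1qtnf3 as the next highest library, and 19 of the 14466 genes tested (0.131%) had a ratio at least that large. Col10a1, a C1q-domain collagen of hypertrophic cartilage, was at 143 CPM in that library and between 0.279 and 0.631 CPM in the other 5. Col8a1 and Col8a2, C1q-domain collagens of vessel and corneal matrix, were at 1712 and 199 CPM in that library and at most 234 and 26.1 CPM elsewhere. The same library had the lowest smooth muscle marker sum, given above, and the part that its cell makeup has in the C1qtnf3 value was not tested.

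C1qtnf6 (ENSMUSG00000022440.9, chromosome 15, 78523346 to 78531416, minus strand) encodes CTRP6, which is known to restrain the alternative complement pathway. It stood at 51.2, 104 and 235 CPM in control libraries and at 64.3, 85.7 and 32.6 CPM in Sept2C111A libraries. The groups overlapped, and control library 3 was 2.26 times the next highest. The log2 fold change was -1.10 (SE 0.60, edgeR adjusted p = 0.402), and it was -0.35 without control library 3.

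C1qtnf5 (ENSMUSG00000079592.9, chromosome 9, 44107245 to 44109187, plus strand) encodes CTRP5, known from an inherited late-onset retinal degeneration. It stood at 36.8, 53.8 and 131 CPM in control libraries and at 75.8, 85.3 and 35.2 CPM in Sept2C111A libraries. The groups overlapped, and the difference on the log2 scale was -0.18 (SE 0.54, edgeR adjusted p = 0.882), or 0.53 without control library 3. The gene lies inside that of Mfrp, a membrane protein of the eye on the same strand, and Rnf26 overlaps it on the other strand. Mfrp was at most 1.48 CPM in any library and Rnf26 at 22.0 to 44.9 CPM. The strand setting of the counting is not given. Counts of C1qtnf5 and of Mfrp were fractional in all 6 libraries. Those of Rnf26 were whole in all 6, so they show no splitting of reads between Rnf26 and C1qtnf5. The source of the reads that C1qtnf5 shared was not tested.

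C1qtnf1 (ENSMUSG00000017446.14, chromosome 11, 118428203 to 118449963, plus strand) encodes CTRP1, which is known to hinder platelet clumping at exposed collagen and to promote aldosterone production. It stood at 59.6, 89.2 and 164 CPM in control libraries and at 108, 115 and 99.5 CPM in Sept2C111A libraries. The means were nearly equal, 104.4 ± 53.9 and 107 ± 7.66 CPM (SD, n = 3 each), and differed by 0.04 on the log2 scale (SE 0.36, edgeR adjusted p = 0.962). The controls lay 2.76-fold apart and the Sept2C111A libraries 1.15-fold.

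C1qtnf4 (ENSMUSG00000040794.5, chromosome 2, 90885860 to 90890525, plus strand) encodes the member with a pair of C1q domains, reported to act in the hypothalamus on food intake. It was covered by 5.92 to 21.3 counts per library, between 0.316 and 1.04 CPM, fractional in all 6 libraries. The groups overlapped (log2 fold change -0.27, SE 0.54, edgeR adjusted p = 0.81).

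Levels of different genes can be compared only per length, and CPM was divided here by the kilobases (kb) of all annotated exons. In control recipients the order of mean levels was C1qtnf6 (48.2 ± 35 CPM per kb), C1qtnf5 (46.6 ± 31.7), C1qtnf3 (37.7 ± 52.1), C1qtnf1 (33.3 ± 17.2), C1qtnf2 (24.5 ± 11.5), C1qtnf12 (17.9 ± 2.2), C1qtnf7 (5.14 ± 1.25), C1qtnf9 (2.57 ± 0.882) and C1qtnf4 (0.581 ± 0.296). The ranges of neighbours in this order overlapped down to C1qtnf12, though C1qtnf5 lay wholly above C1qtnf12, and each of the last 3 lay wholly below the one before. In Sept2C111A recipients C1qtnf2 came first, at 53.9 ± 11.6 CPM per kb, followed by C1qtnf5 (41.2 ± 16.8), C1qtnf1 (34.3 ± 2.45), C1qtnf12 (26.6 ± 2.89), C1qtnf6 (22.5 ± 9.89), C1qtnf7 (14.3 ± 1.22), C1qtnf3 (7.97 ± 2.98), C1qtnf9 (5.59 ± 1.94) and C1qtnf4 (0.48 ± 0.145).

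C1qtnf2 was the most abundant member per kb in each of the 3 Sept2C111A libraries, though its range overlapped that of C1qtnf5. The leading member differed among the controls, being C1qtnf5 in library 1, C1qtnf6 in library 2 and C1qtnf3 in library 3. Within Sept2C111A recipients the ranges of C1qtnf1 and C1qtnf12 did not overlap, nor did those of C1qtnf7 and C1qtnf3 or of C1qtnf9 and C1qtnf4, and the other neighbours overlapped. The 9 members summed to 102, 182 and 365 CPM per kb in control libraries 1, 2 and 3 and to 215, 240 and 165 CPM per kb in Sept2C111A libraries, so the total of the family overlapped between the groups. The lowest and the highest total were both in controls.

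**Figure D3:**
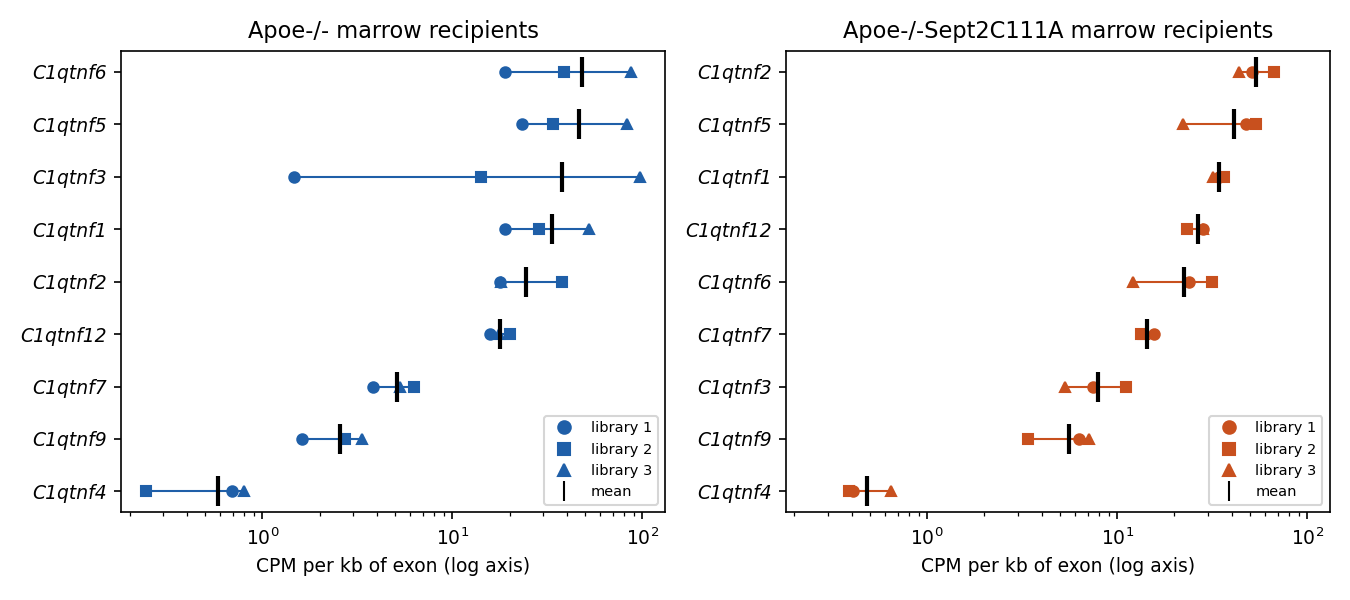
Level of each member in CPM per kb of exon on a log axis, ordered by the group mean (black tick), with 1 point per library and a line over the range, for control recipients (left) and Sept2C111A recipients (right). C1qtnf2 has rank 5 on the left, at 24.5 CPM per kb, and rank 1 on the right, at 53.9, and C1qtnf3 spans 1.46 to 97.4 on the left against 5.29 to 11.2 on the right.

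The genes whose pattern over the 6 libraries was most like that of C1qtnf7 were sought among 12464 genes with a mean count of at least 50. Predicted genes, with names of the Gm or Rik type, were left out of these candidates. Likeness was the root mean square (RMS) difference between log2(CPM + 0.5) profiles, each centred on its own mean. Among the nearest were Per3, a clock gene (RMS difference 0.112), Tef, a transcription factor driven by the clock (0.212), Igfbp6, a binding protein of insulin-like growth factors (0.224), and Pigz, an enzyme of membrane anchor synthesis (0.226). Per3 stood at 10.2, 15.1 and 12.4 CPM in control libraries and at 32.9, 29.8 and 31.5 CPM in Sept2C111A libraries. Igfbp6 stood at 62.2, 88.1 and 80.7 CPM and at 162, 149 and 178 CPM. These 4 genes, like C1qtnf7, were lowest in control library 1 and higher in every Sept2C111A library than in any control, which follows in part from how they were chosen. Within the family the profile nearest to C1qtnf7 was that of C1qtnf2, at 0.346 (rank 43 of the candidates), and C1qtnf9 and C1qtnf12 were at 0.391 and 0.476. C1qtnf3 was the farthest, at 1.95.

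**Figure D4:**
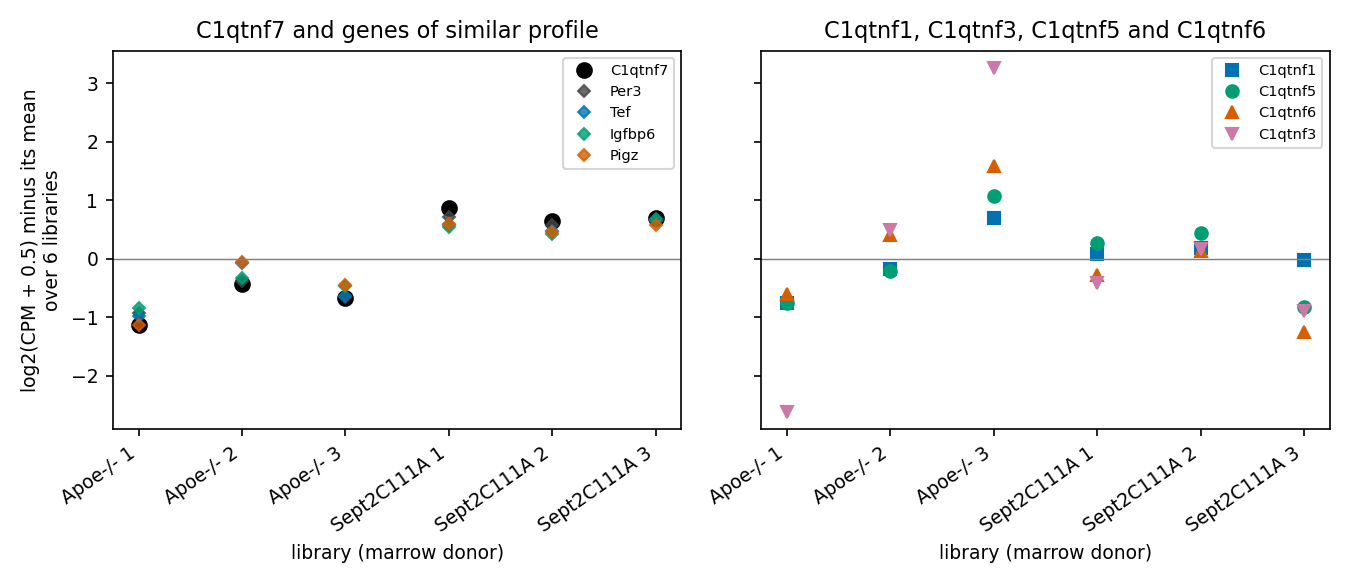
Centred log2(CPM + 0.5) in the 6 libraries for C1qtnf7 with Per3, Tef, Igfbp6 and Pigz (left) and for C1qtnf1, C1qtnf5, C1qtnf6 and C1qtnf3 (right), 1 marker per gene and library. On the left all markers are below 0 in control libraries and above 0 in Sept2C111A libraries, and on the right all 4 genes peak in control library 3.

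Of 23 other genes listed from families with a C1q domain, 22 had a row. Of them 15 were tested, with 3 positive and 12 negative log2 fold changes (50.1% of all genes were positive) and a median of -0.48. In 0 of the 15 were the groups apart, where 11.2% of all genes were wholly higher and 11.9% wholly lower. None passed edgeR's test after adjustment, and 1 was lower at an unadjusted p under 0.05 (Col10a1), as were 8.83% of all genes. DESeq2 called 0, against 0.985% of all genes higher and 2.89% lower, with no adjusted p for Col10a1. Adiponectin (Adipoq) itself, the fat hormone that gives the family its model, stood at 120, 156 and 59.2 CPM in control libraries and at 317, 129 and 168 CPM in Sept2C111A libraries, and its groups overlapped (log2 fold change 0.88, SE 0.46, edgeR adjusted p = 0.386). C1qa, C1qb and C1qc, the chains of complement C1q that macrophages make, had log2 fold changes of -0.03, -0.22 and -0.04, and each was lowest in control library 1. Emilin1 and Emilin2, glycoproteins of elastic fibres and other matrix, differed on the log2 scale by -0.56 (SE 0.25, edgeR adjusted p = 0.353) and -1.74 (SE 0.73, edgeR adjusted p = 0.339). Emilin2 was at 467 CPM in control library 1 and between 50.1 and 97.3 CPM elsewhere. Col8a1, Col8a2 and Col10a1 had log2 fold changes of -2.32, -2.33 and -6.60, each with its highest value in control library 3 as given above.

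The receptors known for adiponectin and its relatives, and the kinase pathway they act through, were read from a list of 24 genes, of which 20 were tested. Positive log2 fold changes were found in 15 and negative in 5, against 50.1% positive over all genes, with a median of 0.23, and 0 passed edgeR's test after adjustment. At an unadjusted p under 0.05, 2 were higher and 1 lower, against 6.17% and 8.83% of all genes, and DESeq2 called 0, against 0.985% and 2.89%. The groups were apart in 4 genes that were higher in Sept2C111A recipients (Ppara, Prkag2, Appl1 and Prkaa2) and 2 that were lower (Adipor1 and Akt1), against the shares of 11.2% and 11.9% over all genes.

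Adipor1, an adiponectin receptor, stood at 213, 143 and 179 CPM in control libraries and at 130.3, 131.3 and 131.6 CPM in Sept2C111A libraries (log2 fold change -0.44, SE 0.17, edgeR adjusted p = 0.327). All controls were higher, and the Sept2C111A libraries were nearly equal. Adipor2, the other receptor, overlapped between the groups (log2 fold change 0.10, SE 0.36, edgeR adjusted p = 0.897). Cdh13, the T-cadherin that holds adiponectin on vessel walls, stood at 187, 386 and 139 CPM and at 468, 399 and 328 CPM, and overlapped (log2 fold change 0.75, SE 0.40, edgeR adjusted p = 0.39). Rxfp1, a relaxin receptor that has been named as a receptor for a family member, was at most 2.61 CPM in any library and was not tested.

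Ppara, a nuclear receptor for fatty acids that lies downstream of adiponectin signalling, stood at 6.47, 13.0 and 1.88 CPM in control libraries and at 22.7, 14.1 and 53.9 CPM in Sept2C111A libraries (log2 fold change 2.09, SE 0.78, edgeR adjusted p = 0.321). The acetyl-CoA carboxylases Acacb and Acaca, which AMP-activated kinase switches off by phosphorylation, had log2 fold changes of 1.61 (SE 0.61, edgeR adjusted p = 0.323) and 1.48 (SE 0.70, edgeR adjusted p = 0.361), with Sept2C111A library 2 among the controls in both. Akt1, a kinase of insulin signalling, differed on the log2 scale by -0.35 (SE 0.15, edgeR adjusted p = 0.346). All 12 adipocyte markers had a positive log2 fold change, against 50.1% of all genes. In 0 of them were the groups apart, where 11.2% of all genes were wholly higher and 11.9% wholly lower. After adjustment 0 passed edgeR's test, against 0% of all genes. DESeq2 called 0, against 0.985% of all genes higher and 2.89% lower. The adipocyte marker sums overlapped, as given above. The part of fat tissue in the values of Ppara, Acaca and Acacb was not tested.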

How the data were processed

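For each library the authors deposited 1 file of expected counts by gene, without normalisation. The build was mm10, and RSEM 1.3.1, Bowtie2 and DESeq2 1.4.5 were used, per the submitters' processing notes. No source used here gives the annotation, the filters or the strand setting. Of the deposited values in a library, 34.6% to 35.9% were fractional, since RSEM splits a read among the transcripts it fits. The file of Sept2C111A library 3 has a heading with a different library number, and its GEO record was followed. Septin names stored as dates (12 rows) were restored.

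Expected counts were rounded and tested with edgeR 4.0.16 under R 4.3.3 (filterByExpr with minimum count 10, which kept 14466 genes, TMM scaling, a two-sided quasi-likelihood test of group alone, Benjamini-Hochberg adjusted p under 0.05 as passing). The SE is the log2 fold change over the root of its F statistic. CPM uses TMM-scaled library sizes. DESeq2 1.42.0 with default settings was run on all rows with a read. Both tools were tested on simulated counts. The counts of replicates differed far beyond sampling noise (chi-square per degree of freedom from 52.6 to 249).

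Positions, exon lengths and coding sequences come from GENCODE vM21 (mm10, 1-based). The members and gene lists were chosen with earlier results of these data known. Named genes are the 9 members, the 5 of smallest p in each of the 2 other lists with 9 fixed names, the 5 profiles most like C1qtnf7 (1 of which is not reported here) and genes overlapping a member.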

Additional observations from a re-analysis of the deposited data

How the results depend on the processing

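No gene was called by edgeR with all libraries, with DESeq2-type (RLE) scaling, with no low-count filter, with a mean count of at least 50, or without any 1 library, and 0 of the 8 members other than C1qtnf7, 0 of the C1q-domain relatives and 0 of the receptors and partners were called in those fits. DESeq2 called 570 genes (145 higher and 425 lower), and 575 over the genes that edgeR tested, an alternative chosen after seeing the data, which called 1 of the 8 members, C1qtnf12. With 1 library left out, DESeq2 called 330, 1767 and 339 genes (control libraries 1, 2 and 3) and 241, 650 and 116 genes (Sept2C111A libraries 1, 2 and 3), with 0 to 2 members, 0 to 3 relatives and 0 to 4 partners. The log2 fold change of C1qtnf7 ran from 1.31 to 1.65, of C1qtnf2 from 0.95 to 1.59, of C1qtnf9 from 0.88 to 1.38 and of C1qtnf12 from 0.50 to 0.67 over the edgeR fits that left out 1 library. Over the same fits that of C1qtnf6 ran from -1.47 to -0.35, so its sign did not change.

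The sign of C1qtnf1, with a log2 fold change near 0, reversed without control library 1 (-0.23, DESeq2 -0.24), without control library 2 (-0.06 in both) and without Sept2C111A library 2 (-0.01, DESeq2 -0.02). Without control library 3, C1qtnf3 (0.03, DESeq2 0.02), C1qtnf4 (0.04, DESeq2 0.03) and C1qtnf5 (0.53 in both) reversed. C1qtnf5 also reversed without Sept2C111A library 3 (0.14, DESeq2 0.12). Without both control libraries 1 and 3, chosen after seeing the data, C1qtnf4 was at 0.96 and C1qtnf5 at 0.28. Over the edgeR fits without 1 library the lowest values were -2.79 for C1qtnf3, -0.64 for C1qtnf4 and -0.49 for C1qtnf5, and the highest for C1qtnf1 was 0.53. The cause of these reversals was not tested. The fit without both libraries sets 1 control against 3 libraries, assumes that it varies as they do, and its values carry no test.

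Replicate numbers did not pair the samples: deviations of same-numbered libraries from their group means correlated at 0.00548, 0.15 and -0.166. With the replicate number as a block edgeR called 0 genes, 0 members, 0 relatives and 0 partners, and the log2 fold change of C1qtnf7 was 1.50. The block moved C1qtnf3 from -2.24 to -0.64, C1qtnf5 from -0.18 to -0.01 and C1qtnf1 from 0.04 to 0.17. Levels on deposited totals without TMM moved by less than the SD for all 18 member and group means. Dividing by the longest transcript in place of all exons moved 1 of 18 levels per kb beyond its SD, that of C1qtnf1 in Sept2C111A recipients (42.4 in place of 34.3). C1qtnf4 had 5.92 to 21.3 counts per library, the fewest of the members.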
